A study of Mus musculus with 6 samples.

Results

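The miR-29 family was followed through small RNA libraries of exosomes, vesicles that cultured cells shed into the medium around them. Its members were the mature guide strands mmu-miR-29a-3p, mmu-miR-29b-3p and mmu-miR-29c-3p, taken by name and written without the species prefix further on, which are 3 of the 1964 mature miRNAs and of the 16310 non-coding RNAs listed for each library. Fb libraries (n = 3) came from exosomes of dermal fibroblasts from the dorsal skin of db/db mice aged 14 weeks, a diabetic and obese line with a defective leptin receptor. These cells grew with 10% fetal bovine serum and were moved to serum-free medium for 2 days before collection. ESC libraries (n = 3) came from exosomes of epidermal stem cells from the dorsal skin of C57BL/6 mice aged 3 weeks, enriched by rapid adhesion to collagen IV and kept in serum-free keratinocyte medium. All 6 libraries carry the strain label C57BL/6, whereas the growth protocol gives db/db for the fibroblasts. Cells of both kinds were at passage 0 to 1, and the labels name no further agent. Cell type, mouse line, age and medium changed together between the groups and cannot be told apart. The labels call the libraries biological replicates without tying any of them to an animal, and each p-value speaks only of the variation among the libraries at hand, which may be technical.

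miRNAs are short guide RNAs that pair through their seed, the bases near the 5′ end, with sites in messenger RNAs and lower the output of those messages. The miR-29 family is known for its sites in many messages of the extracellular matrix, among them the fibrillar collagens, elastin and fibrillin, and its loss is a common feature of fibrotic tissue. In fibroblasts the profibrotic signal TGF-β lowers miR-29, and more miR-29 lowers collagen output.

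The members share the seed AGCACCA and differ only behind it. In the sequences below, from RefSeq (GRCm38.p6) and written 5′ to 3′, capitals mark the seed at bases 2 to 8. They are shown because the division of reads among the members rests on the few bases by which they differ.
mmu-miR-29a-3p: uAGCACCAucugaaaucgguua
mmu-miR-29b-3p: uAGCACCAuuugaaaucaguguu
mmu-miR-29c-3p: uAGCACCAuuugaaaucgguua
All 3 members matched the RefSeq table, and of its 1679 mature mouse miRNA names no others have this seed. Counted from the 5′ end, miR-29a-3p and miR-29c-3p differ by the single substitution C10U. miR-29b-3p is longer by 1 base and differs from miR-29c-3p by G18A, U21G and A22U. A read trimmed to its first 17 bases or fewer can therefore match both miR-29b-3p and miR-29c-3p. miR-29a-3p differs from both at base 10, so without mismatches only reads of 9 bases or fewer would match all 3. Matching that allows a mismatch could also join miR-29a-3p and miR-29c-3p, and the aligner was not given. The sum of the members does not depend on how such reads were divided.

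The family is made from 4 genes in 2 clusters (GRCm38). Mir29a (chr6:31062660-31062747) and Mir29b-1 (chr6:31063023-31063093) lie 275 bases apart on the minus strand of chromosome 6. Mir29b-2 (chr1:195037040-195037120) and Mir29c (chr1:195037547-195037634) lie 426 bases apart on the plus strand of chromosome 1, inside an annotated exon of the non-coding host gene A330023F24Rik, which had no row here, and opposite an exon of Cd46 on the other strand. Mir29b-1 and Mir29b-2 give the same miR-29b-3p, so only their 5p arms tell those genes apart. Capitals mark the guide strand in the hairpins of the chromosome 6 cluster and bases 2 to 8 in the 5p arms of the miR-29b genes, which are shown because reads of these arms are compared further on.
Mir29a hairpin: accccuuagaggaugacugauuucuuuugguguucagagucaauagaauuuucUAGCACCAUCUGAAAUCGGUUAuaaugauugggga
Mir29b-1 hairpin: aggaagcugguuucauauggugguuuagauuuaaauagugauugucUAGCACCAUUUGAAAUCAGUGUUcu
miR-29b-1-5p: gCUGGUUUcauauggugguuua
miR-29b-2-5p: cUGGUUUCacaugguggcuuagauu

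Depth differed between the groups. Reads assigned to any RNA numbered 6914504 to 8691350 in Fb libraries and 9894485 to 11149046 in ESC libraries, but reads of mature miRNAs numbered only 49019 to 177990 in Fb and 1392859 to 1522604 in ESC libraries. Levels are therefore given on 2 scales, as CPM (counts scaled to a common total of 1000000) of mature miRNA reads and as CPM of all assigned reads, and 95% intervals are exact binomial (Clopper-Pearson) intervals of the counts. Without molecular identifiers, intervals and the floor of 3 reads cover counting error only. Fb replicate 1 stood apart from the other Fb libraries, with mature miRNAs at 0.613% of its reads against 2.05% and 1.72%, and with correlations of log2 CPM across the tested miRNAs of 0.755 and 0.805 to replicates 2 and 3, which correlated at 0.920. Labels were checked on miRNA markers. The 6 mesenchymal markers, such as miR-143-3p and miR-214-3p, summed to 194836 to 303454 CPM of miRNA reads in Fb and 175 to 209 CPM in ESC libraries. The 7 epithelial markers, such as miR-205-5p and miR-200c-3p, summed to 7457 to 14174 CPM in Fb and 59872 to 74600 CPM in ESC libraries, and all 7 were read in both groups.

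As a share of miRNA reads the family was far higher in Fb exosomes, and nearly all of it was miR-29a-3p. The summed members were at 4834, 12961 and 13557 CPM of miRNA reads in Fb replicates 1, 2 and 3, against 391, 483 and 345 CPM in ESC replicates 1, 2 and 3. Every Fb library lay above every ESC library, with Fb replicate 1 the lowest of its group. The means were 10451 ± 4873 CPM in Fb and 406 ± 70.7 CPM in ESC exosomes (SD, n = 3 each), a ratio of 25.7. An exact two-sided permutation test gave p = 0.1, which is the lowest value that groups of 3 can reach. In a fit of all mature miRNAs with the members replaced by their sum, the log2 fold change of Fb over ESC was 4.36 (SE 0.56, adjusted p = 7.65e-04 by the quasi-likelihood test of edgeR), and 27.9% of the RNAs of that fit were called higher in Fb. The fit normalises each library by TMM factors, which assume that most miRNAs are level between libraries, and its fold was 20.6. That assumption is uncertain here, since 49.5% of the miRNAs were called in the fit with separate members. In these bulk preparations, fewer vesicles of a kind and less RNA in each vesicle cannot be told apart.

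Of the 3 members, 2 passed the threshold of an adjusted p of 0.05 in the fit of mature miRNAs, both higher in Fb exosomes. Of all 325 mature miRNAs tested there, 49.5% were called, 27.7% as higher in Fb and 21.8% as higher in ESC exosomes, and the median log2 fold change was 0.11. Those calls were 90 higher in Fb and 71 higher in ESC exosomes. With library totals in place of TMM factors they were 103 and 52, and without the 3 most abundant miRNAs they were 75 and 90. Against this background a count of 2 of 3 is not read as particular to the family.

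mmu-miR-29a-3p, the main product of the chromosome 6 cluster, was at 4712 (95% interval 4125 to 5359), 12748 (12232 to 13280) and 13305 (12661 to 13973) CPM of miRNA reads in Fb replicates 1, 2 and 3. In ESC replicates 1, 2 and 3 it was at 346, 425 and 303 CPM. The groups did not overlap, and the lowest Fb interval lay well above the highest ESC level. Fb over ESC gave a log2 fold change of 4.51 with an SE of 0.56 (edgeR adjusted p = 7.19e-04), at place 41 of the 325 miRNAs by signed fold. Ranked by level, it stood at place 36, 17 and 18 of the mature miRNAs in the Fb libraries and at place 112, 103 and 115 in the ESC libraries.

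mmu-miR-29b-3p, made by both clusters, was read far less. It was at 122, 95.5 and 78.3 CPM of miRNA reads in Fb replicates 1, 2 and 3, from 6, 17 and 9.30 estimated reads. In ESC replicates 1, 2 and 3 it was at 14.4, 25.7 and 6.57 CPM, from 20, 38 and 10 reads. The groups did not overlap, and Fb replicate 1 was the highest Fb library here although it was the lowest for miR-29a-3p. Its fold on the log2 scale was 2.24 ± 0.55 (SE; edgeR adjusted p = 0.0140), and without Fb replicate 2 it was 1.88 and missed the threshold (edgeR adjusted p = 0.0644). The ESC libraries alone would not have carried miR-29b-3p past the count filter, since ESC replicate 3 lay under it.

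mmu-miR-29c-3p, made only by the chromosome 1 cluster, did not pass. It had 0 reads in Fb replicate 1 and was at 118 and 174 CPM of miRNA reads in Fb replicates 2 and 3, against 30.2, 33.1 and 34.9 CPM in ESC replicates 1, 2 and 3. The groups overlapped through Fb replicate 1 alone. There 3 reads would be 61.2 CPM, so a level like that of the ESC libraries was not detectable in it. Its fold on the log2 scale was 1.40 ± 0.75 (SE; edgeR adjusted p = 0.154). Without Fb replicate 1 it was 1.75 and passed (edgeR adjusted p = 0.00163). Of the 325 miRNAs, 36.0% lay higher in every Fb library, as miR-29a-3p and miR-29b-3p did, and 24.9% higher in every ESC library, so that 60.9% had groups that did not overlap.

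**Figure D1:**
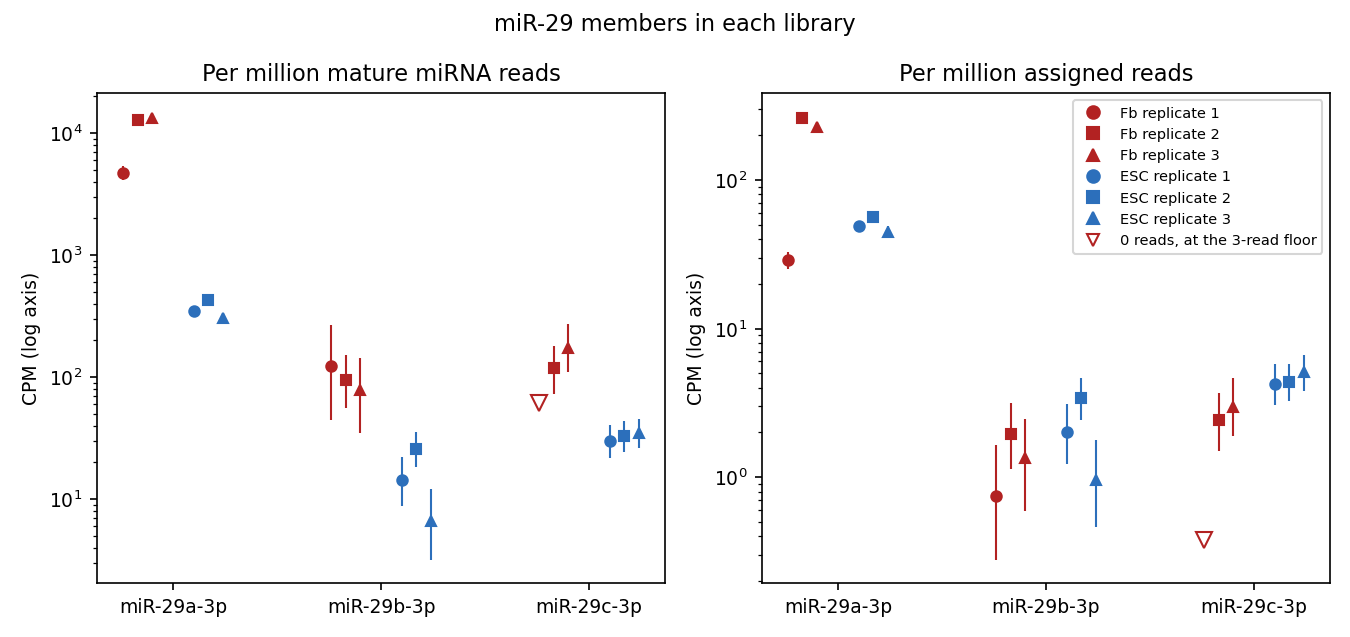
Level of each miR-29 member in each library (log axes), in CPM of mature miRNA reads (left) and of all assigned reads (right), with Fb in red left of ESC in blue. Bars are 95% exact binomial intervals, and an open triangle marks a library with 0 reads at its floor of 3 reads. On the left the Fb libraries of miR-29a-3p sit at 4712 to 13305 CPM, above all ESC libraries, and on the right Fb replicate 1 sits below them.

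**Figure D2:**
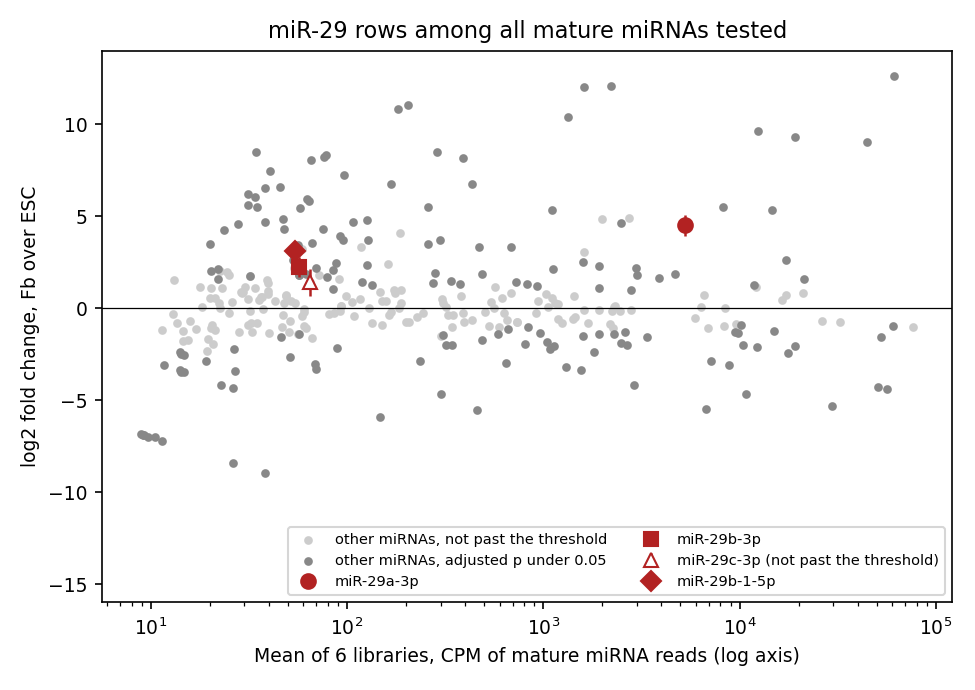
Log2 fold change of Fb over ESC against mean level (CPM of mature miRNA reads over 6 libraries, log axis) for the 325 mature miRNAs tested, with the miR-29 rows in red and their SE as bars. miR-29a-3p (4.51) lies far to the right of the other miR-29 rows, and miRNAs with larger folds lie at many levels.

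Scaled to all assigned reads, miR-29a-3p had overlapping groups. On this scale the miRNA share enters the level, and it was 0.613% to 2.05% in Fb and 13.3% to 14.7% in ESC libraries. miR-29a-3p was at 28.9, 261 and 228 CPM of all reads in Fb replicates 1, 2 and 3, against 48.7, 56.3 and 44.5 CPM in ESC replicates 1, 2 and 3. Fb replicates 2 and 3 lay above every ESC library and Fb replicate 1 below every ESC library. The means were 173 ± 126 CPM in Fb and 49.9 ± 5.99 CPM in ESC exosomes (SD, n = 3 each), so the difference was smaller than the SD between Fb libraries. The family sum was at 176 ± 128 CPM in Fb and 56.6 ± 6.90 CPM in ESC exosomes (SD, n = 3 each), with an exact two-sided permutation p = 0.4.

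The minor members did not follow miR-29a-3p on this scale. miR-29b-3p was at 0.751, 1.96 and 1.34 CPM of all reads in Fb replicates 1, 2 and 3, against 2.02, 3.41 and 0.964 CPM in ESC replicates 1, 2 and 3, and the groups overlapped. miR-29c-3p was at 0, 2.42 and 2.98 CPM in Fb replicates 1, 2 and 3 and lower there than in ESC replicates 1, 2 and 3, at 4.24, 4.39 and 5.13 CPM. In Fb replicate 1, 3 reads would be 0.375 CPM, under every ESC level. Of the same 325 miRNAs, 85.2% had groups that did not overlap on this scale, 10.5% with every Fb library higher and 74.8% with every ESC library higher, so the position of miR-29c-3p was that of most miRNAs.

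In a fit of all RNAs, with Benjamini-Hochberg adjustment over 2999 RNAs, 0 of the 3 members passed by edgeR, where 11.8% of all RNAs were called, 8.17% as higher in Fb and 3.63% as higher in ESC exosomes. Of the mature miRNAs in that fit, 5.21% were called higher in Fb. The family sum, in a fit that called 8.21% of RNAs higher in Fb, had a log2 value of 4.00 ± 1.47 (SE) and did not pass either (edgeR adjusted p = 0.127). The calls split into 245 higher in Fb and 109 higher in ESC exosomes, and into 149 and 203 with library totals in place of TMM factors. Of the members, only miR-29a-3p had an unadjusted edgeR p under 0.05, at 0.0191, and its log2 value was 4.15 ± 1.48 (SE; edgeR adjusted p = 0.115). By DESeq2 1 of the 3 passed, again miR-29a-3p (log2 value 4.20, DESeq2 adjusted p = 0.00216), where DESeq2 called 18.1% of RNAs, 12.5% as higher in Fb. With library totals in place of TMM factors its log2 fold change was 1.79, and those of miR-29b-3p and miR-29c-3p were -0.67 and -1.33. Without Fb replicate 1 the fold of miR-29a-3p was 4.73 and passed (edgeR adjusted p = 7.98e-04).

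**Figure D3:**
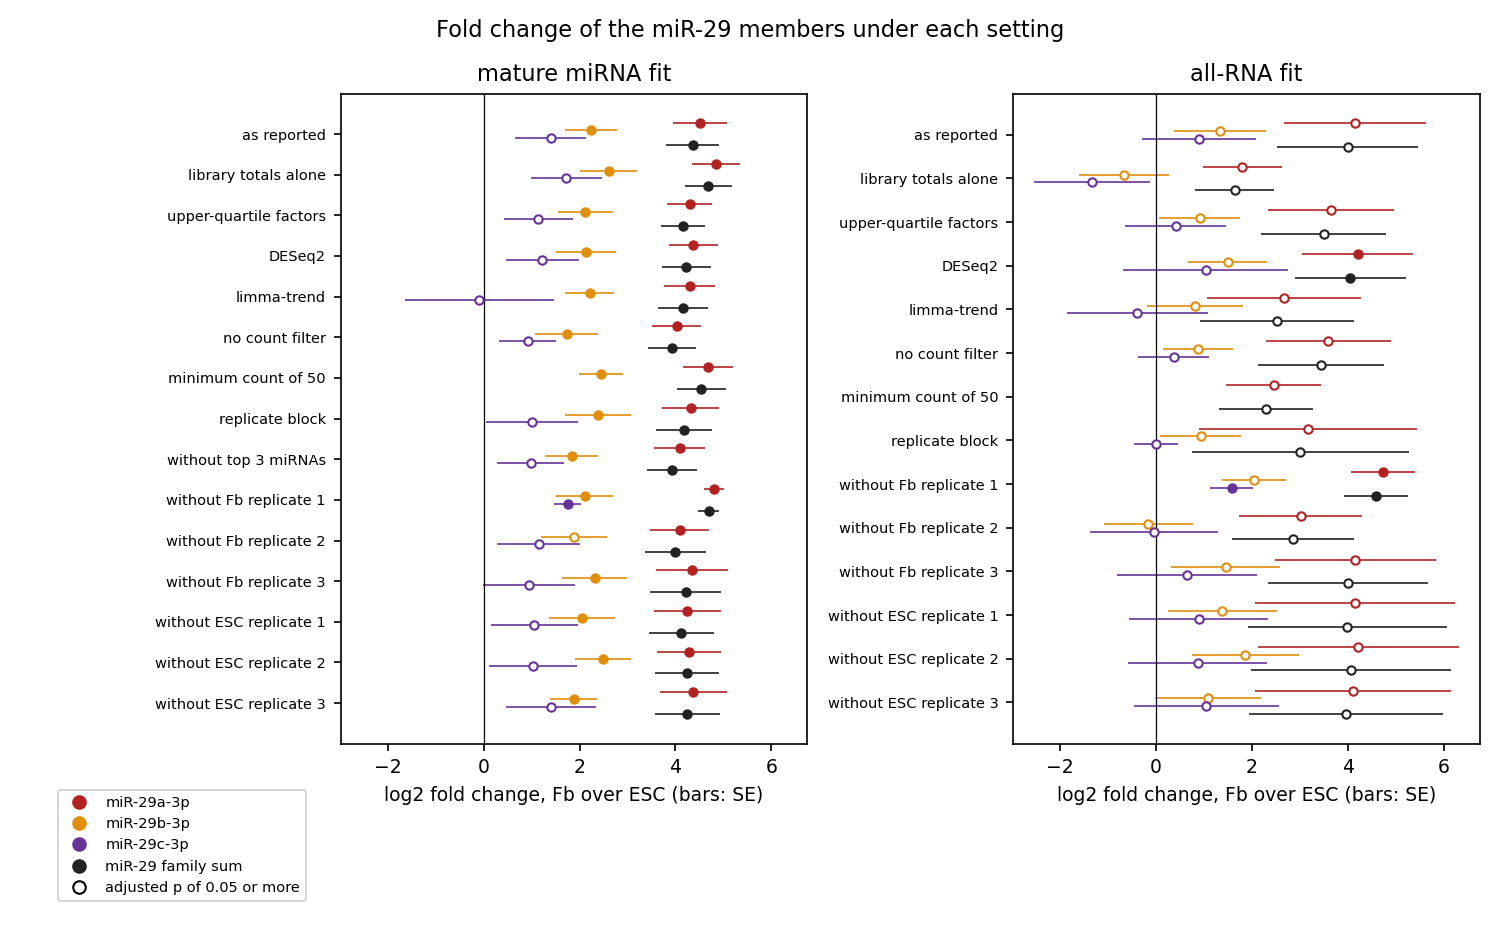
Log2 fold change of Fb over ESC with its SE for each miR-29 member and for their sum, in the fit of mature miRNAs (left) and of all RNAs (right), as reported and under each alternative. Filled points have an adjusted p under 0.05, and a member that was not tested under a setting has no point. On the left the points of miR-29a-3p stay between 4.02 and 4.84, and on the right the points of miR-29b-3p and miR-29c-3p lie on both sides of 0.

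The spread between Fb libraries came mainly from replicate 1. The level of miR-29a-3p per miRNA read was 2.71-fold and 2.82-fold higher in Fb replicates 2 and 3 than in replicate 1, and replicates 2 and 3 differed by a factor of 1.04. Per assigned read these ratios were 9.04 and 7.91, since the miRNA share of replicate 1 was lower as well, by factors of 3.34 and 2.80. For comparison, the highest Fb library exceeded the lowest by a median of 2.60 over the 265 tested miRNAs read in every Fb library, and 113 of these had a wider spread than miR-29a-3p. Between ESC libraries the same ratio was 1.40 for miR-29a-3p and had a median of 1.29 over 302 miRNAs. The spread of miR-29a-3p was thus near that of other miRNAs of the same libraries. Marker levels of other cells also differed between Fb libraries. The 3 muscle markers summed to 1714, 466 and 556 CPM of miRNA reads in Fb replicates 1, 2 and 3, against 123 to 161 CPM in ESC libraries. The 8 haematopoietic markers, of which 6 were read in each group, summed to 4405, 1182 and 22308 CPM in Fb replicates 1, 2 and 3, against 198 to 304 CPM in ESC libraries. miR-486a-5p and miR-486b-5p made up nearly all of that sum, while miR-142a-3p had 0 reads in every library and miR-223-3p at most 2.5. miR-142a-5p had 5, 3 and 8 reads in Fb and 0, 1 and 2 in ESC replicates 1, 2 and 3. On these few reads it was called higher in Fb exosomes (log2 fold change 5.60, edgeR adjusted p = 0.00230). miR-451a had 2, 1 and 7 reads in Fb and 1, 1 and 5 in ESC replicates 1, 2 and 3. miR-150-5p had 0 reads in Fb libraries and at most 3 in ESC libraries, and miR-144-3p at most 1 in any library. The muscle sum was highest in Fb replicate 1, mostly through miR-1a-3p, with 53, 1 and 0 reads in Fb replicates 1, 2 and 3. Per miRNA read miR-133a-3p was highest there as well (14, 5 and 8 reads), while miR-206-3p was lowest there (17, 77.0 and 58 reads). The haematopoietic sum was highest in Fb replicate 3 through miR-486a-5p and miR-486b-5p, whereas miR-142a-5p was highest per miRNA read in Fb replicate 1. The 2 endothelial markers summed to 347, 163 and 109 CPM in Fb replicates 1, 2 and 3, against 77.1 to 120 CPM in ESC libraries. Nearly all of this was miR-126a-5p, from 17, 26 and 12 reads in Fb replicates 1, 2 and 3, while miR-126a-3p had 0, 3 and 1. The serum marker miR-122-5p was at most 5.83 CPM in Fb and 7.90 CPM in ESC libraries. Of the 3 neural and pigment markers only miR-124-3p was read in either group, at up to 5.62 CPM in Fb and 8.11 CPM in ESC libraries. In Fb libraries 3 reads would be 16.9 to 61.2 CPM, so the Fb levels of miR-122-5p and miR-124-3p were under the floor. They do not show whether these markers were lower or higher than in ESC libraries. The part of any of these markers in the level and spread of miR-29 was not tested.

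The make-up of the family does not depend on any scaling of the libraries, and for miR-29a-3p and miR-29c-3p the groups lay apart. The shares of a library add up to the whole, so a higher share of miR-29a-3p is a lower share of the minor members. These comparisons are therefore not separate results. In Fb exosomes miR-29a-3p held 97.5%, 98.4% and 98.1% of family reads in replicates 1, 2 and 3, against 88.6%, 87.8% and 88.0% in ESC replicates 1, 2 and 3. The means were 98.0% ± 0.461 in Fb and 88.1% ± 0.413 in ESC exosomes (SD, n = 3 each). The difference of 9.86 percentage points was many times the SD of either group, and the exact two-sided permutation test gave p = 0.1, or 0.15 once adjusted over the 3 members.

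miR-29c-3p held 0%, 0.912% and 1.28% of family reads in Fb replicates 1, 2 and 3, against 7.72%, 6.85% and 10.1% in ESC replicates 1, 2 and 3. The groups did not overlap, and neither did the counting intervals, since the highest Fb bound was 1.99% and the lowest ESC bound 5.11% (p = 0.1 by the same exact test, 0.15 adjusted). This share of the chromosome 1 product was low in Fb replicate 1 as in the others: 0 of 237 family reads there allow a share of up to 1.54%. For each read of miR-29c-3p there were 108 and 76.6 reads of miR-29a-3p in Fb replicates 2 and 3, against 11.5, 12.8 and 8.68 in ESC replicates 1, 2 and 3.

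miR-29b-3p held 2.53%, 0.737% and 0.578% of family reads in Fb replicates 1, 2 and 3, against 3.68%, 5.31% and 1.90% in ESC replicates 1, 2 and 3. Fb replicate 1 lay within the range of the ESC libraries, so the groups overlapped (p = 0.2 by the same exact test, 0.2 adjusted). The order of the members was miR-29a-3p, then miR-29c-3p, then miR-29b-3p in every ESC library, with overlapping intervals of the minor members in replicates 1 and 2. In Fb exosomes the minor members had no common order, and their intervals overlapped in every library. Lengths of 22 and 23 bases make these levels comparable per length, but the small RNA library chemistry can favour some sequences over others, so ratios between members are firmer between groups than within a library. Of the 18 member values, 13 were within 0.05 of a whole number, and none was further than 0.381 reads from one, which does not show how reads that match several members were assigned.

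**Figure D4:**
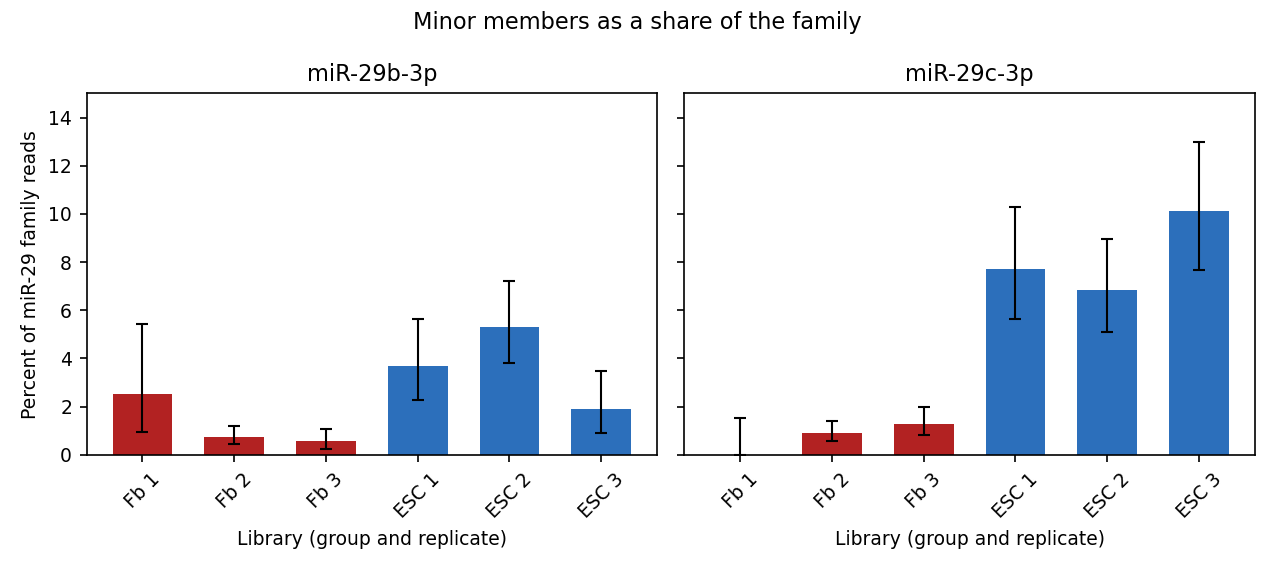
Share of miR-29 family reads held by miR-29b-3p (left) and miR-29c-3p (right) in each library, in percent, with 95% exact binomial intervals. Here miR-29a-3p holds the rest. The miR-29c-3p bars of Fb (0% to 1.28%) lie below those of ESC (6.85% to 10.1%), while the miR-29b-3p bars overlap.

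The other strands of the hairpins were not used to choose the members. miR-29b-1-5p, the strand opposite the guide in the chromosome 6 gene, was at 163, 73.0 and 67.4 CPM of miRNA reads in Fb replicates 1, 2 and 3, against 4.31, 9.47 and 9.85 CPM in ESC replicates 1, 2 and 3. Every Fb library lay above every ESC library, and the fold on the log2 scale was 3.13 ± 0.52 (SE; edgeR adjusted p = 0.00234). The fold rested on 29 reads over the Fb libraries and 35 over the ESC libraries. This strand passed the count filter through its Fb libraries alone, the group where it was higher, so its call is not taken as independent support. Relative to all assigned reads the groups overlapped, at 1.00, 1.50 and 1.16 CPM in Fb and 0.606, 1.26 and 1.45 CPM in ESC replicates 1, 2 and 3.

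The remaining 5p strands were below the count filter. miR-29b-2-5p, from chromosome 1, had 2 reads over the Fb libraries and 6 over the ESC libraries. Of the 5p reads of the miR-29b genes, 29 of 31 came from Mir29b-1 in Fb (93.5%, 95% interval 78.6 to 99.2) and 35 of 41 in ESC exosomes (85.4%, 95% interval 70.8 to 94.4). These intervals are of pooled reads and leave out the variation between libraries. Single libraries were at 86.7% to 100% in Fb and 78.9% to 93.3% in ESC exosomes, so the groups overlapped. A difference in gene use was not detectable at this depth. miR-29a-5p had 5 and 3 reads and miR-29c-5p 1 and 4 reads over the Fb and the ESC libraries.

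The strand balance of the miR-29b genes was unlike that of Mir29a in both cell types. The 5p strand made up 0.122% of the pooled miR-29a reads in Fb (95% interval 0.0398 to 0.285) and 0.190% in ESC exosomes (95% interval 0.0393 to 0.556). For miR-29b, with both genes summed, the 5p strands made up 50.1% ± 6.12 in Fb and 39.9% ± 22.2 in ESC exosomes (SD, n = 3 each). The ESC libraries ranged from 25.9% to 65.5% and covered the Fb libraries, at 46.2% to 57.1% (exact two-sided permutation p = 0.5). Pooled over libraries the share was 49.0% in Fb (95% interval 36.4 to 62.1) and 37.6% in ESC exosomes (95% interval 28.5 to 47.4), far above the intervals of miR-29a in both groups. The pooled intervals do not hold the variation between libraries and do not compare the groups. Reads outside the mature strands were almost lacking. The hairpin rows of the 4 genes together held under 1 estimated read over the Fb libraries and about 3 over the ESC libraries, and Gm27019, a lincRNA annotated just upstream of Mir29b-1, held 0.667 and 0 reads.

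**Figure D5:**
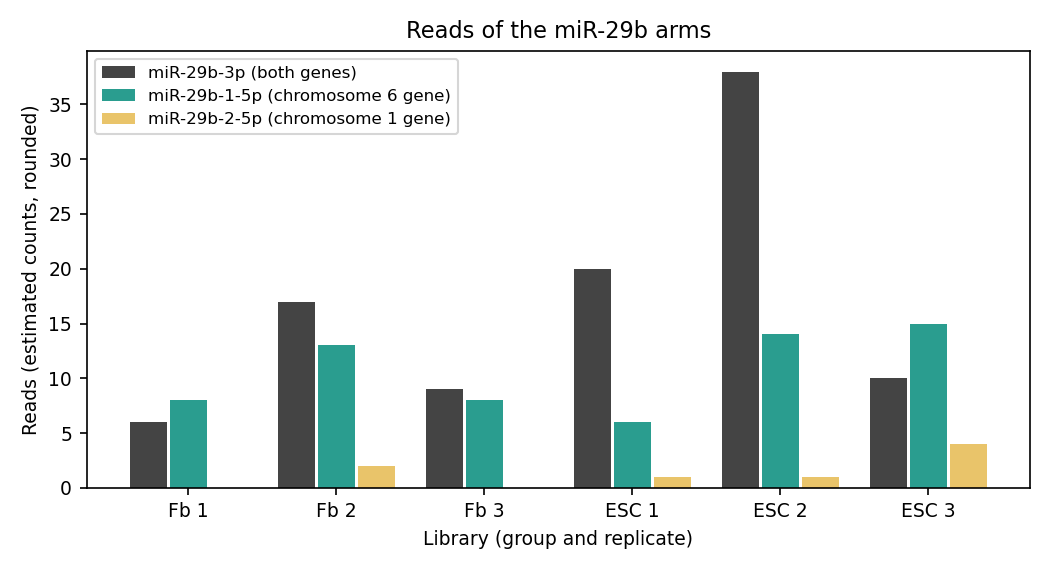
Reads (estimated counts, rounded) of miR-29b-3p, miR-29b-1-5p and miR-29b-2-5p in each library, Fb left of ESC. The chromosome 6 strand miR-29b-1-5p has 8 to 13 reads in Fb and 6 to 15 in ESC libraries, and the chromosome 1 strand miR-29b-2-5p at most 4.

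The matrix messages that miR-29 is known to repress could not be set beside it, since 0 of 18 target genes looked for, such as Col1a1, Col3a1 and Eln, have a row in these non-coding RNA tables. Other miRNAs with a described role in matrix production were compared in the same fit of mature miRNAs. Of 17 miRNAs described as opposing matrix production, 15 had enough reads for the test. Of these, 2 passed as higher in Fb and 8 as higher in ESC exosomes, and the other 5 did not pass, where 27.7% of all tested miRNAs were called higher in Fb and 21.8% higher in ESC exosomes. The list shares miR-200a-3p, miR-200b-3p and miR-200c-3p with the epithelial markers, so 3 of its 8 calls in that direction are markers used to check the labels. The list's median log2 fold change was -1.13, against 0.11 over all miRNAs tested. miR-200c-3p, which holds cells in the epithelial state, was at 411 ± 279 CPM in Fb and 13135 ± 758 CPM in ESC exosomes (SD, n = 3 each; log2 fold change -5.50, edgeR adjusted p = 1.25e-04). The same direction was found for miR-200a-3p (-4.20) and miR-200b-3p (-5.51) of that family, and for miR-30a-5p, which represses the matrix regulator Ctgf (-1.35, edgeR adjusted p = 0.00673). The pair higher in Fb exosomes, named after their values were seen, was miR-133a-3p (3.55, edgeR adjusted p = 0.0199), which is also a muscle marker, and miR-101a-3p (1.10, edgeR adjusted p = 0.0172). miR-29a-3p and miR-29b-3p were called in the direction that fewer members of this list took. Both matrix lists were chosen with earlier results of these data known, so their counts and medians are description only.

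Of 8 miRNAs described as favouring matrix production, 7 had enough reads for the test. Of these, 4 passed as higher in Fb and 1 as higher in ESC exosomes, and the other 2 did not pass, beside the same shares of 27.7% and 21.8% over all tested miRNAs. The median log2 fold change was 1.33, against 0.11 over all tested miRNAs. Of the 4 higher in Fb, 3 are in the mesenchymal marker list used to check the labels, namely miR-199a-5p, miR-214-3p and miR-145a-5p. miR-214-3p was at 2682 ± 359 CPM in Fb and 1.35 ± 1.32 CPM in ESC exosomes, and miR-199a-5p at 3224 ± 1144 CPM in Fb and 0.458 ± 0.398 CPM in ESC exosomes (SD, n = 3 each), the second from 2 ESC reads in all. miR-145a-5p was at 4423 ± 3608 CPM in Fb and 0.690 ± 0.677 CPM in ESC exosomes, from 3 ESC reads in all. miR-155-5p, an inflammatory miRNA, was at 1256 ± 363 CPM in Fb and 392 ± 7.74 CPM in ESC exosomes (log2 fold change 1.33, edgeR adjusted p = 0.0233). The member higher in ESC exosomes was miR-34a-5p (-1.39, edgeR adjusted p = 0.0404), a target of p53. The members that did not pass, named after their values were seen, were miR-21a-5p and miR-192-5p. miR-21a-5p was at 59364 ± 21953 CPM in Fb and 94494 ± 5115 CPM in ESC exosomes (SD, n = 3 each). It lay higher in every ESC library (log2 fold change -1.02, edgeR adjusted p = 0.0679). The log2 fold change of miR-192-5p was -0.098 (edgeR adjusted p = 0.794).

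Among the other 322 tested miRNAs, miR-140-3p had the pattern most like that of the family sum. Likeness was the root mean square difference between log2(CPM + 1) profiles over the 6 libraries, each centred on its own mean, and it was 0.325 for miR-140-3p. miR-140-3p, known from cartilage and other mesenchymal cells, was at 3221, 5685 and 5557 CPM of miRNA reads in Fb replicates 1, 2 and 3, against 172, 150 and 136 CPM in ESC replicates 1, 2 and 3. Next came miR-369-3p (0.625), miR-299a-3p (0.633), miR-22-5p (0.647) and miR-574-3p (0.666). In ESC libraries miR-369-3p was at 0.676 to 3.94 CPM and miR-299a-3p at 1.31 to 2.03 CPM. These levels are near the floor of 3 reads, so the places of these miRNAs rest on few reads. The profile of miR-29a-3p was at 0.076 from the family sum, which it nearly makes up. That of miR-29b-3p was further from the sum than any of the like miRNAs named, at 1.18. That of miR-29c-3p was further still, at 3.09, with its 0 reads in Fb replicate 1.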

How the data were processed

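Exosome small RNA of 3 Fb and 3 ESC cultures was sequenced. Per the labels' protocols, medium was cleared, filtered, concentrated and ultracentrifuged, and libraries were made with the CleanTag kit and size-selected. The submitters' processing notes name FastQC, cutadapt and build GRCm38; aligner, counter, strand setting and the handling of multiple matches were not given in the sources used. Each deposited file holds estimated counts per non-coding RNA, which were rounded for the fits.

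Fits used edgeR 4.0.16 (quasi-likelihood, TMM, minimum count 10, minimum total 15, group only; R 4.3.3) on mature miRNAs or on all RNAs, with Benjamini-Hochberg adjustment over all RNAs tested; SE is the log2 fold change divided by the root of F. Positive folds mean higher in Fb. Shares were compared by exact permutation (scipy 1.17.1). Fits were also run on data simulated with known folds and the same spread between libraries in both groups. The real Fb libraries spread more than the ESC libraries, so these runs do not vouch for the calls here. The members and lists were chosen with earlier results of these data known. Named were the members, other rows of their genes, up to 4 per matrix list by p with at least 10 CPM, and 5 miRNAs of like pattern. Further members of the matrix lists were named after their values were seen. Alternatives used DESeq2 1.42.0, limma 3.58.1, other factors, filters, denominators and library sizes, the replicate block, and each library left out.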

Additional observations from a re-analysis of the deposited data

How the results depend on the processing

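In the fit of mature miRNAs, miR-29a-3p and the family sum kept direction and call under all 14 alternatives (log2 fold change of Fb over ESC 4.02 to 4.84 and 3.93 to 4.70), and miR-29b-3p under 13 of 14. With a library left out miR-29b-3p ranged from 1.88 to 2.49, losing its call without Fb replicate 2. miR-29c-3p ranged from 0.94 to 1.75, called without Fb replicate 1, and was -0.090 by limma-trend. In the fit of all RNAs, miR-29a-3p and the family sum passed by DESeq2 (4.20 and 4.05) and without Fb replicate 1, with a range of 3.02 to 4.73 and 2.86 to 4.58 over libraries left out. miR-29b-3p ranged from -0.17 to 2.05 and was -0.67 with library totals alone. miR-29c-3p ranged from -0.050 to 1.58, called without Fb replicate 1, and was -1.33 with library totals alone, -0.39 by limma-trend and -0.0042 with the replicate block. The cause of these changes was not tested. With a minimum count of 50, miR-29c-3p in the first fit and both minor members in the second were not tested. Library totals alone moved the median of all folds from 0.11 to 0.52 for miRNAs and from -0.07 to -0.81 for all RNAs. All 5 share results kept their direction.

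Calls among miRNAs numbered 161, with 103 without Fb replicate 3 and 107 without ESC replicate 3. Calls among all RNAs numbered 354, with 541 by DESeq2, 697 with no count filter, 179 with the replicate block and 589 without Fb replicate 1. They numbered 0 by edgeR without Fb replicate 3 or ESC replicate 1, 2 or 3, where 618, 560, 587 and 625 RNAs had an unadjusted p under 0.05. Same-numbered libraries correlated in their deviations at -0.26 to -0.11 over miRNAs and at -0.0016 to 0.088 over all RNAs, so the numbers are not taken to pair them. The replicate block gave miR-29a-3p 4.32 and miR-29b-3p 2.38 among miRNAs and changed no call of a member or of the sum. Counts of 0 to 21 reads per Fb library limit miR-29b-3p and miR-29c-3p.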
